A study of Drosophila melanogaster with 2 samples.

Results

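The gene plexus (px, FBgn0003175) was described through every summit of the E(spl)m8-HLH peak lists that fell inside the gene or at most 2 kb outside it. It occupies arm 2R from 22494297 to 22562065 on the minus strand of dm6. It was chosen by its signal, as the gene with the strongest peak of the optimal peak set, so its signals and ranks are a description and were not tested. It is 1 gene of 13945 protein-coding genes on the 6 main chromosome arms. It held 10 of the 6152 summits of the optimal set, 38 of 30000 in the pooled list, 35 of 30000 in replicate 2 and 39 of 30000 in replicate 3.

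The data came from 1 group with no second condition. Chromatin was taken from whole *Drosophila melanogaster* embryos of both sexes, 4 to 14 h old, of a transgenic line that carries E(spl)m8-HLH with GFP at its C-terminus, and was sonicated to 200 to 800 bp. It was precipitated with an antibody against GFP and sequenced as 2 biological replicates, numbered 2 and 3. Every embryo thus carried the tagged protein, and all tissues of the embryo were mixed, so signal from few cells and signal from many cells cannot be told apart. The labels do not say how the transgene is driven or whether the untagged gene was still present.

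px encodes a nuclear protein that keeps wing veins from forming between their normal positions. Flies that lack it grow a network of extra veins, from which the gene takes its name. It acts beside net, a bHLH repressor, and bs, the fly serum response factor, which specifies the cells between veins. E(spl)m8-HLH is a bHLH-Orange repressor of the Enhancer of split complex, is switched on by Notch and works with the corepressor Groucho. In the wing, Notch and proteins of this complex narrow the veins by holding back vein genes such as rho. The veins themselves form in larvae and pupae, later than the embryos measured here.

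px spans 67769 bp and has 6 annotated transcripts from 3 start sites. Start 1, at 22562065, is shared by px-RA, px-RE, px-RF and px-RG. Start 2, at 22546558, is that of px-RB and lies 15507 bp further along the gene. Start 3, at 22514099, is that of the short transcript px-RD and lies another 32459 bp on, inside intron 12 of px-RA. That transcript has 14 exons and 13 introns, of which intron 12 (35108 bp) and intron 3 (14240 bp) are the longest. px lies on arm 2R, and no bases of it are printed.

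The strongest peak of px ran from 22514065 to 22514522 on dm6 and was 458 bp wide. Its summit at 22514308 lay 209 bp upstream of start 3, within intron 12 of px-RA, and the peak covered the start site itself. The signal is the value deposited with each peak, and the labels do not say how it was computed. This peak had 5071 in the optimal and pooled lists, 2811 in replicate 2 and 2295 in replicate 3. It ranked 1 of 30000 in replicate 2 and 2 of 30000 in replicate 3, whose strongest peak had a signal of 2429. The summits called in the replicates lay 12 bp apart. In replicate 2 the peak ended 1 bp short of start 3, and in replicate 3 it reached 40 bp past it.

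At start 3 px therefore carried the top or next to top value of each replicate list. The optimal and pooled lists were derived from the same replicates and gave this peak the same signal, so they add no separate reading. In the optimal set the peaks ranked 2 and 3 had signals of 4382 and 4057. The next strongest peak of arm 2R had 3458.

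**Figure D1:**
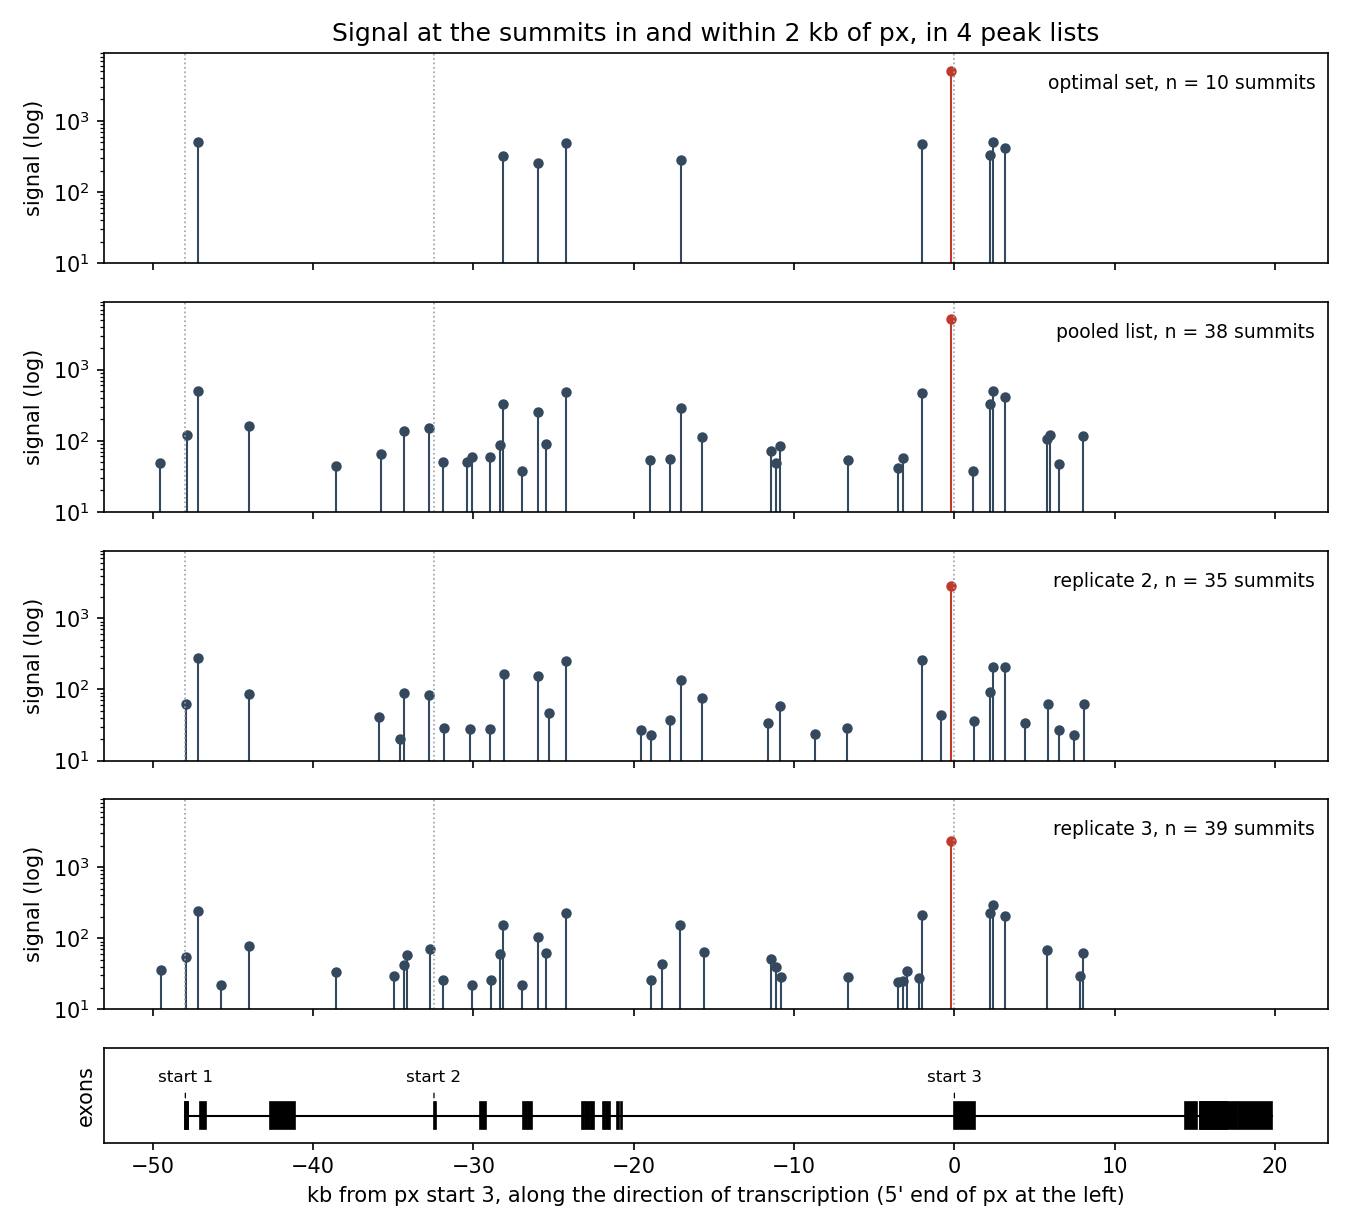
Each line is a summit in px or within 2 kb of it, with its signal on a log axis and its distance from start 3 in kb along the direction of transcription; rows are the optimal set, the pooled list, replicate 2 and replicate 3, the lowest row shows exons of all transcripts, dotted lines mark the 3 starts, and red marks the peak at start 3. The red summit stands at 5071, 5071, 2811 and 2295, and the highest of the other px summits in any list had 503.

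The other 9 optimal summits of px had signals of 255 to 503 and ranks of 1369 to 3666. The strongest of them had 503, so the peak at start 3 stood 10.1 times above the next summit of the gene. The ratio was 10.3 in replicate 2, where the values were 2811 and 274, and 7.76 in replicate 3, where they were 2295 and 296. The peak at start 3 made up 58.7% of the summed optimal signal of px, 49.6% of the sum in replicate 2 and 43.2% in replicate 3.

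By place, 6 of the 10 optimal summits lay in intron 12, 2 in intron 5, 1 in intron 3 and 1 in intron 1 of px-RA. None lay in an exon or in the flanks of the gene. In intron 12, 5 of the 6 formed a cluster around start 3, from 2006 bp upstream of it to 3147 bp downstream. The strongest peak thus had 4 other optimal summits within 5 kb, where the median over all 6152 summits was 1 and 412 summits (6.70%) had at least 4.

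Within that cluster, the summit 2006 bp upstream of start 3 (22516105) had an optimal signal of 466, with 258 in replicate 2 and 211 in replicate 3. Downstream of start 3, a pair of summits 199 bp apart shared 1 called stretch. The one at 22511688 had 496 and the one at 22511887 had 331. In replicate 2 these were summits of 208 and 92.3, and in replicate 3 of 296 and 225. The one at 22511688 ranked 1920 in replicate 2 and 1018 in replicate 3. The one at 22511887 ranked 5531 in replicate 2 and 1606 in replicate 3, so both summits stood higher in replicate 3. The summit at 22510952, 3147 bp downstream, had 418, 210 in replicate 2 and 207 in replicate 3.

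The sixth summit of intron 12 (22531166), 15392 bp downstream of start 2, had an optimal signal of 286, with 138 in replicate 2 and 153 in replicate 3. In intron 5 the summit at 22538317 had 488 and the one at 22540063 had 255, the lowest optimal value of the gene. The weaker one ranked 2914 in replicate 2 and 4992 in replicate 3. The stronger one ranked 1452 and 1580, with summits 3 bp apart. The only optimal summit of intron 3 (22542222) had 325, with 166 in replicate 2 and 156 in replicate 3.

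Intron 1 is 776 bp long and held the summit at 22561256, 809 bp downstream of start 1. Its signal of 503 was the next highest of px after the peak at start 3 in the optimal and pooled lists, and so was its 274 in replicate 2 (rank 1278). In replicate 3 it had 245 (rank 1399), below the 296 of the summit downstream of start 3. The 9 optimal summits other than the strongest thus fell within 255 to 503, although they were spread over intron 1 to intron 12.

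The 3 start sites of px differed in signal. 1 of the 3 had an optimal summit within 500 bp, where 18.5% of the 19607 start sites of protein-coding genes had one. All 3 had a pooled summit within 500 bp, where 47.6% of start sites had one. The nearest pooled summit to start 1 lay 87 bp downstream with a signal of 119 and rank 9301. It ranked 8650 in replicate 2 and 11813 in replicate 3, and both replicates placed it 70 bp downstream. At start 2 the nearest pooled summit lay 327 bp upstream with 149.6 and rank 7143. Its rank was 6263 in replicate 2 and 8737 in replicate 3.

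The levels at the starts thus ran in the order start 3, start 2, start 1 in the pooled list and in both replicates. In replicate 2 they were 2811, 83.5 and 63.0, and in replicate 3 they were 2295, 70.5 and 55.1. The lower pair differed less from each other than from start 3. Of 693 protein-coding genes with 3 start sites, 140 resembled px in having an optimal summit within 500 bp of exactly 1 of them, 412 had one at none, 92 at 2 and 49 at all 3.

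The pooled list added 28 weaker summits, with signals of 37.1 to 161 and a median of 58.7. The whole of px had 38 pooled summits, of which 19 lay in intron 12, 11 in intron 3, 3 in intron 5, 1 each in introns 1 and 2, 2 in exons and 1 in the 5′ flank. Of the 38, 10 were in the optimal set, where 20.5% of all pooled peaks were. Intron 3 held 11 pooled summits but 1 optimal one, with 7.72 pooled summits per 10 kb. In intron 12 the pooled density was 5.41 per 10 kb. The strongest of the 28 (161, rank 6493) lay in intron 2, 3948 bp downstream of start 1, at the same base or 1 bp from it in both replicates.

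The weak summits differed in the caller’s own significance. The −log10 q-value is a significance adjusted for multiple testing, by a method that the labels do not state. It was 4.21 for all 10 optimal summits of px, and every one of the 6152 optimal peaks had this same value. It is also the highest value of the pooled list, so it does not order these peaks. Over the 38 pooled summits, 13 of which had 4.21, the −log10 q-value ran from 0.33 to 4.21 with a median of 1.91. The median of the whole pooled list was 1.44. The lowest px value was 0.24 in replicate 2 and 0.40 in replicate 3. Counts over the longer lists thus include px summits of low significance. In replicate 2 the median over the 35 px summits was 2.59, against 1.16 over the list. In replicate 3 it was 2.29 over the 39 px summits and 1.69 over the list.

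Along the gene the summits left long stretches empty. px had 1.39 optimal and 5.29 pooled summits per 10 kb, where the 6 arms had 0.460 and 2.24. Yet between the 3′ end of px and its nearest summit lay 16655 bp without an optimal summit and 11766 bp without a pooled one. This stretch holds the last exons of all transcripts. It opened a longer gap beyond the gene: 99.3 kb without an optimal summit, where the median gap between neighbouring summits was 6.87 kb and 3.24% of gaps were longer. In the pooled list the gap was 41.1 kb, against a median of 1.32 kb, and 1.40% were longer. Replicate 2 gave 41.0 kb and replicate 3 gave 41.2 kb for it.

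Within the body the longest distance between optimal summits was 19034 bp, from intron 3 to intron 1, and it included start 2. No list had a summit in a 3483 bp jockey retrotransposon that lies in intron 12. How reads from repeats were treated is not stated in the labels.

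The summits just inside and just outside the 2 kb limit were weak. In the pooled list the outermost counted summit lay 1593 bp beyond start 1 with a signal of 48.5, and the first uncounted one lay 2252 bp beyond it with 57.8. Both lay in the body of dnr1, a ubiquitin ligase gene. In the optimal set the nearest uncounted summits were 8005 bp beyond the 5′ end (174) and 82647 bp beyond the 3′ end (281).

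Other genes share the region. CG11362 starts 242 bp from start 1 on the opposite strand, and the pooled summit near start 1, at 119, also lay within 500 bp of its start. CG4610 ends 2 bp from the 3′ end of px and held no summit in any list. gas, nested in intron 3 on the other strand, held no summit in its body, and its start had a pooled and a replicate 2 summit within 500 bp. No optimal summit of px lay in another gene.

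All 10 optimal summits of px lay in peaks that a peak of each replicate overlapped by at least 1 bp, where 98.5% of all optimal peaks did. Of the 28 weaker pooled peaks, 19 were found in both replicates, 4 only in replicate 2 and 5 only in replicate 3. Over all weaker pooled peaks 68.6% were found in both. Together this made 29 of 38, where the share over all pooled peaks was 74.7%, so px stood near the rest of the list in this respect.

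Ranks in the replicates were closer for the optimal peaks of px than for the typical optimal peak, but the px peaks were also stronger. Their median optimal signal was 442, against 290 over the set, and no peaks of like strength were compared. The median absolute log2 ratio of the rank in replicate 3 to that in replicate 2 was 0.30 over the 10 optimal peaks of px and 0.47 over all optimal peaks found in both. The median distance between replicate summits was 21 bp in px, with a range of 3 to 48 bp, and 25 bp over all. These are descriptions, since the px pair downstream of start 3 overlaps the same replicate peaks and counts double in them. Of the 19 weaker px peaks found in both replicates, 17 ranked better in replicate 2 and 2 in replicate 3, where over all such peaks the numbers were 8229 and 8118. Neighbouring peaks of 1 gene are not independent of each other. Some of these 19 also match the same replicate peaks as another pooled peak of px, so they count more than once.

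**Figure D2:**
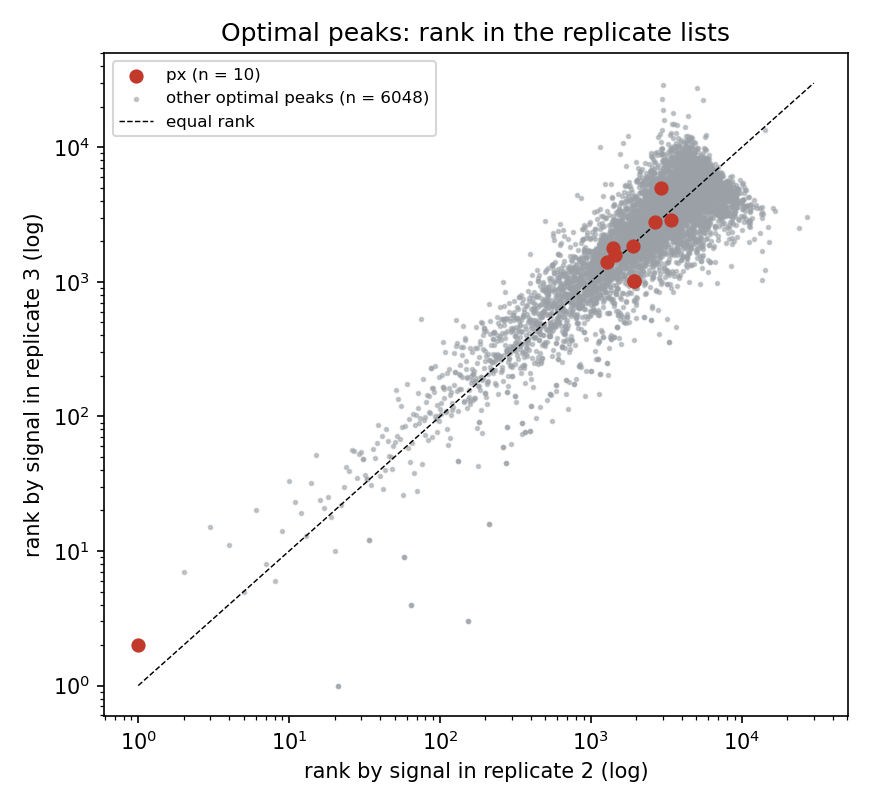
Rank by signal in replicate 2 (x axis, log) and in replicate 3 (y axis, log) for the optimal peaks found in both; red points are the 10 px peaks, of which a pair coincides, grey points the other 6048, and the dashed line marks equal rank. The px peak at start 3 is at rank 1 and 2, and the others sit between 1018 and 4992. Each peak is placed by the strongest replicate peak that overlaps it, so the summit at 22511887 takes the ranks of its neighbour.

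The optimal peaks of px had a median width of 248 bp, against 424 bp over the optimal set. They ran from 129 to 466 bp, and the strongest, at 458 bp, was wider than the median of the set. The most common width of the list, 424 bp, applied to 1 of the 10 px peaks and to 48.6% of all optimal peaks. In the pooled list the median width was 424 bp both in px and overall.

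Among genes, px was bound in the sense that 36.8% of all protein-coding genes were, with at least 1 optimal summit in the body or within 2 kb. Of the 535 protein-coding genes 0.5 to 2 times as long as px, 66.0% were bound. Length thus goes with binding, and px was read against genes of like length. px had 10 optimal summits, against a median of 2 over the 535, and 21 of them had more. It had 38 in the pooled list, against a median of 10, it had 35 in replicate 2, against 11, and it had 39 in replicate 3, against 9. Between 37 and 44 of the 535 had more summits than px in these 3 lists. In number of summits px was thus high but not at the top. Its strongest optimal signal was at the top by the way px was chosen, so that place is no result of the comparison.

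**Figure D3:**
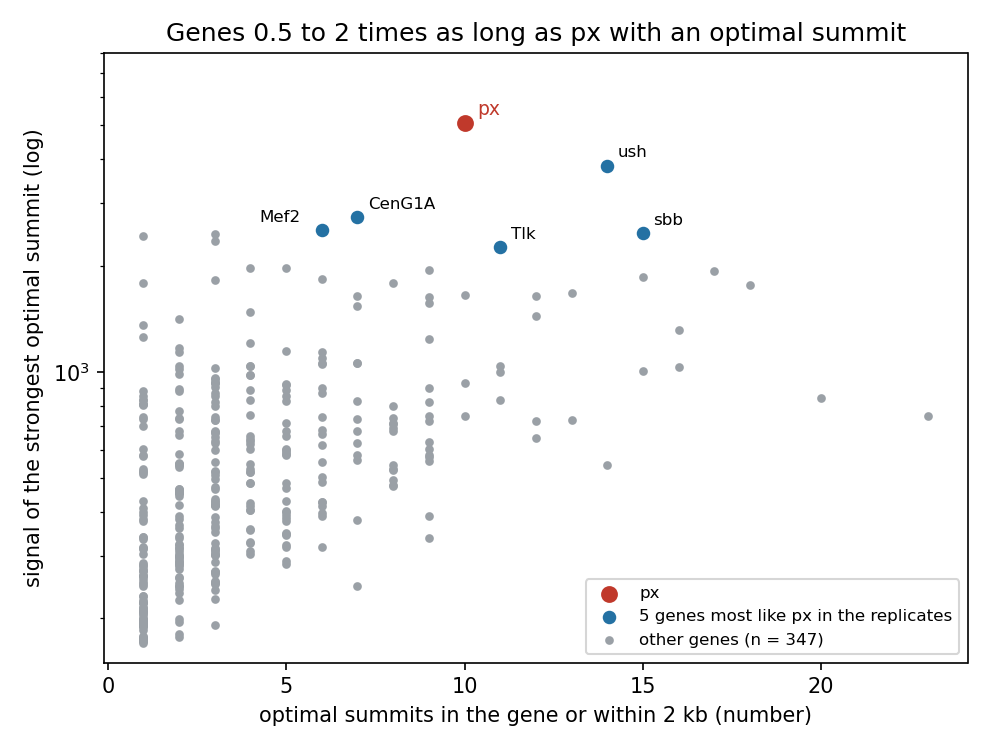
Number of optimal summits (x axis) and signal of the strongest one (y axis, log) for the 353 genes 0.5 to 2 times as long as px with at least 1; px is red, the 5 genes most like it in the replicates blue, the other 347 grey. px, chosen by its strongest peak, is highest at 5071 with 10 summits, and the blue genes lie at 2259 to 3836 with 6 to 15.

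The distance between the strongest summit and the next was wide in px. Of 232 protein-coding genes with at least 5 optimal summits, px had the highest ratio of the strongest to the second signal, 10.1, with a median of 1.44 over the 232. Mef2, a muscle transcription factor, followed at 8.29, and Trl, which encodes GAGA factor and was named here after its value was seen, at 7.67. This place at the top rests in part on the signal by which px was chosen, and it held only in the optimal set. The longer lists bring in more genes with at least 5 summits, 2051 in the pooled list against 232 in the optimal set. A higher ratio than that of px was found for 28 of 2051 such genes in the pooled list, 34 of 1985 in replicate 2 and 37 of 2253 in replicate 3.

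**Figure D4:**
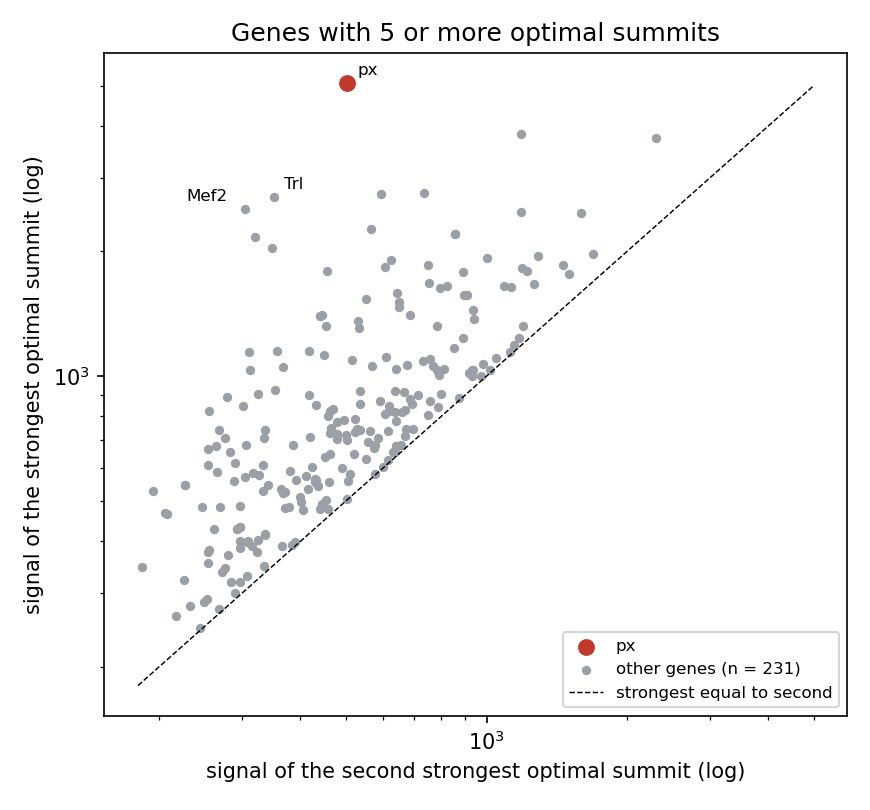
Signal of the strongest (y axis, log) against the second strongest optimal summit (x axis, log) of the 232 genes with at least 5 optimal summits; px is red, the other 231 are grey, and the dashed line marks equal values. px, chosen by its strongest peak, lies farthest above the line, at 5071 against 503, followed by Mef2 and Trl.

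The genes whose pattern was most like that of px were found among 534 of like length. The measure was the mean over both replicates of the absolute log2 ratio of best rank and of the absolute log2 ratio of number of summits plus 1, over 2 samples. ush, which encodes a zinc finger cofactor of GATA factors, was nearest at 2.66. Its strongest optimal signal was 3836 among 14 optimal summits, at rank 8 in replicate 2 and 6 in replicate 3. CenG1A followed at 4.30 (2740 and 7 summits), then Mef2 at 5.10 (2523 and 6), Tlk, a chromatin-linked kinase, at 5.27 (2259 and 11) and sbb, a corepressor of the scribbler type, at 5.43 (2470 and 15). The median distance over the 416 genes with a peak in both replicates was 11.5. The measure leans on ranks at the top of the lists, and it says nothing of a shared function.

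Of the 38 wing vein and intervein genes listed, px included, 27 had an optimal summit in the body or within 2 kb, and 26 of the 37 others did. The share of all protein-coding genes was 36.8%, but the listed genes had a median length of 14.3 kb, against 2.17 kb over all protein-coding genes. The median strongest signal was 548 over the 27 bound genes of the list, px included, and 360.4 over all bound genes. These medians were not matched for length. Over the bound genes 0.5 to 2 times as long as px the median was 493. px stood above all others of the list in optimal signal, by the way it was chosen. In number of optimal summits pnt, the ETS factor at the end of the Egfr pathway, had more, with 13.

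px had a strongest optimal signal of 5071. Of the genes closest to it in role, net had 399, bs 441 and E(spl)mbeta-HLH, a Notch target of the same family as E(spl)m8-HLH, 2852. E(spl)mbeta-HLH was the highest of the list after px, at rank 18. In replicate 2 px had 2811 and E(spl)mbeta-HLH 1325, and in replicate 3 px had 2295 and E(spl)mbeta-HLH 1507. At net and E(spl)mbeta-HLH the strongest summit lay near a start of the gene, at −162 bp for net and −117 bp for E(spl)mbeta-HLH, where a negative distance is upstream.

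Of the Egfr pathway that promotes veins, the secreted antagonist aos had 1628, the neuregulin-like ligand vn 1019, the ETS factor pnt 728, the ligand spi 678, Ras85D 326, the receptor Egfr 301 and rho, the protease that releases spi, 249. The summit of rho lay 43 bp downstream of its start. Of the Notch pathway, the receptor N had 955, its ligand Delta 412 and the helix-loop-helix gene emc 206, whereas the pathway's transcription factor Su(H) and its antagonist H had no optimal summit. Su(H) had pooled summits up to 139, and H had none in any list.

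Of the BMP and Hedgehog genes, cv-2 had 1180, gbb 1179, ptc 710, tkv 575, sog 564, dpp 395, hh 262 and ci 256. For 7 genes of the list the strongest summit lay nearest to a start of another gene. These were gbb (eIF6), cv-2 (CG17974), vn (mad2), N (CG18508), bs (CG44812, 398 bp), Egfr (CG30283) and hh (CG31457), so the neighbours share these values. Sharing was not limited to them, as aos and CG33158 had the same strongest optimal signal, 1628. osp had 1789, ab 548, caup 289, knrl 265 and cg 207. The 11 genes of the list with no optimal summit were H, Su(H), ara, ash2, cv, kni, mirr, rl, salm, salr and vvl, and of these H and rl also had no pooled summit.

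**Figure D5:**
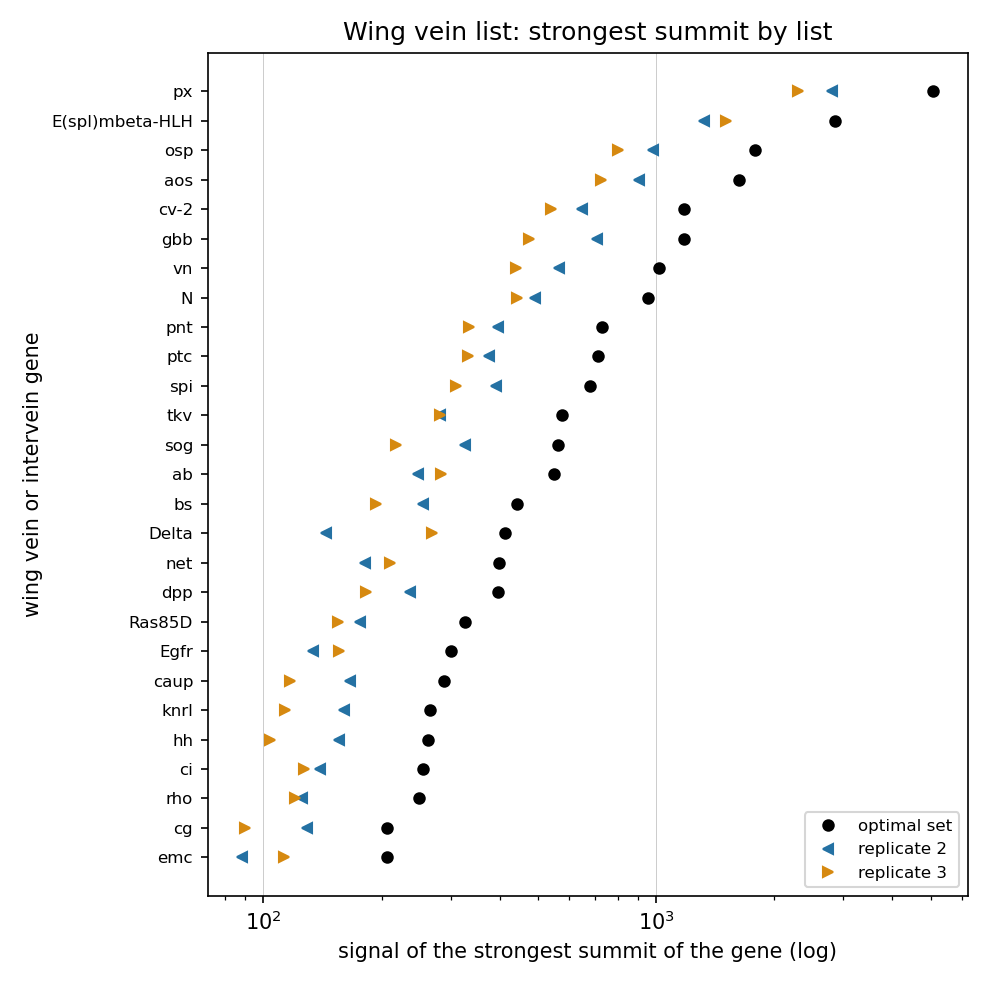
Signal of the strongest summit (x axis, log) of each of the 27 bound genes of the wing vein list, ordered by the optimal set; black circles are the optimal set, blue left-pointing triangles replicate 2 and orange right-pointing triangles replicate 3. px, chosen by its optimal signal, is highest in all 3, with 5071, 2811 and 2295, and E(spl)mbeta-HLH comes next with 2852, 1325 and 1507.

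The sequence under the px summits was searched for 13 short motifs, on both strands, within 50 bp on each side of each summit. Motifs can overlap themselves and each other, and a match is no evidence of binding. Of the 10 optimal windows of px, 0 held CACGTG, the E-box bound by many bHLH-Orange proteins, which 2.00% of all optimal windows held. CACGCG, a site that these repressors also bind, was in 0 of 10 (3.32% of all), the N-box CACNAG in 0 of 10 (9.93%) and TGGGAA, the core recognised by Su(H), in 0 of 10 (5.59%). With shares this low in the whole set, 0 of 10 windows does not set px apart from it.

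Of the remaining motifs, GAGAG, the core bound by GAGA factor, was in 1 of 10 px windows (11.0% of all optimal windows), and AAAAAA in 2 of 10 (25.1%). The E-box CAGCTG was in 1 of 10 (4.84%) and CATATG, another E-box, also in 1 (4.14%). The GATA motif AGATAA was in 1 of 10 (7.93%). No px window held TAATTA of homeodomain proteins (9.85%), CAGGTA of Zelda (2.24%), the E-box CAGGTG (2.88%) or ATCGATA of boundary factors (2.60%). In the 38 pooled windows CACGCG was in 2 (3.16% of all pooled windows), CACGTG in 0 (1.94%) and GAGAG in 7 (13.0%).

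The window at the strongest summit held 0 of the 13 motifs, where the median was 1 over all optimal windows. Its GC content was 27.7%, against a median of 32.7% over all optimal windows, 27.1% of which were lower. The median over the 10 px windows was 36.6%.

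A wider view of the strongest peak, added after its values were seen, took 457 bp centred on the summit. It held 9 GAGAG matches, with overlapping ones counted apart, where the median over all optimal peaks was 1 and 133 of 6152 (2.16%) had 9 or more. The median over the 10 px peaks was 0. The matches lay in a pair of groups, 5 at −204 to −163 bp from the summit, upstream of it, and 4 at 94 to 125 bp downstream, with none between. From start 3 the groups lay at −413 to −372 bp and at −115 to −84 bp, both upstream of it. Of the 12 other motifs it held 0, where the median was 3 and 2.23% of peaks held none.

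The same stretch contained a perfect inverted repeat with arms of 11 bp, each centred 87 bp from the summit and 163 bp apart. An arm of 11 bp or more across the summit occurred in 5.51% of all optimal peaks, with a median longest arm of 8 bp. Between the arms the GC content was 32.5%, and in the 272 bp outside them it was 58.8%. The summit thus lay at the middle of an AT-rich stretch between GC-rich sides.

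None of the 10 optimal px peaks had another copy in the genome, counted as 50 bp or more at 90% identity or more, where 70 of all 6152 (1.14%) had one.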

How the data were processed

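The authors deposited 4 peak lists on dm6, per the labels: an optimal set, 1 list from the replicates pooled, and 1 for each replicate. The signal of a peak and its −log10 q-value are the authors' deposited values and were used as they stand, and only within their list. Ranks were compared only between lists of 30000 peaks. No aligner, caller, version or reproducibility threshold is stated in the labels or headers. Read depth is unknown. A summit was counted for px in its body or within 2 kb, on the Ensembl 115 annotation and the RefSeq Release 6 sequence; all peaks lay within the arms. px and the gene and motif lists were chosen with earlier results of these data known. The genes named were px, its neighbours, the wing vein list and the 5 genes most like px. Trl, CG33158 and the genes with the start nearest to a vein gene's summit were named after their values were seen. Delta is the annotation's name for Dl. The measures in 457 bp, the gaps, the copies (blastn 2.17.0) and the ratios outside the optimal set were added after the data were seen. Counting was checked on simulated peaks. The software was Python 3.11.15, pandas 2.3.3, numpy 2.4.6 and matplotlib 3.10.9. The replicates are samples of 1 group, so no test between groups was made. Alternatives covered flanks, stronger peaks, overlap rules, promoter and motif windows and leaving out each replicate.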

Additional observations from a re-analysis of the deposited data

How the results depend on the processing

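Of 40 alternatives to the counts and ranks, 33 stayed within 1.5 times the reported count, or kept the rank, and 7 moved. In the stronger 50% of each list px had 21 pooled, 21 replicate 2 and 20 replicate 3 summits. The rank of the strongest peak was 1 to 2 when a replicate was left out. The number of optimal summits near a px start was 0 within 200 bp, 2 within 1 kb and 0 at start 1 alone, since the summit lies 209 bp from start 3. Without replicate 2 or 3, px had 10 or 12 summits among the 6152 strongest. Of 26 motif counts in windows of 25 or 100 bp on each side, 7 moved, each by at most 2 windows, and CACGTG and CACGCG stayed at 0. Within 100 bp CACNAG was in 2 px windows, TGGGAA in 1 and TAATTA in 1, where the reported windows had 0 of each. No paired analysis was possible because there is only 1 group. With 2 replicates and no depths, small differences in rank have no error estimate.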
